A study of Pimephales promelas with 270 samples.

Results

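The transcripts described here are the 100 that were most abundant in the youngest unexposed larvae of the series among those that were scarce in the oldest. The series sequenced mRNA from larvae of Pimephales promelas, the fathead minnow, a freshwater fish common in toxicity tests, which had been kept with or without propranolol. Counts were divided by the total of their library and scaled to a common total to give CPM, the count expected in a library of 1000000 counts. The members have a mean below 2 CPM in the unexposed 6-day larvae after 48 h, which 11638 of the 34856 transcripts in the table had. Of these 11638, the members are the 100 with the highest mean in the unexposed 4-day larvae after 6 h, and they are ranked 1 to 100 by that mean. The members were thus chosen by their mean CPM in those 2 control groups, and every value from them is given as a description. No difference from these groups is tested here, although the closing search for single outlying libraries includes them.

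Larvae labelled 4, 5 or 6 days after fertilization spent 6, 24 or 48 h without propranolol (controls), at 0.66 mg/l (the low dose) or at 3.3 mg/l (the high dose), which gave 9 sets and 27 groups. The table holds 266 libraries: 10 per group, except that 6-day larvae after 24 h have 9 at the low dose and 9 at the high dose, and 6-day controls after 48 h have 8. Neither a strain nor the number of larvae behind a library is stated, nor whether the labelled age is that before or after the exposure, nor whether libraries of a group came from separate vessels. The p-values therefore measure the spread between these libraries, which may be partly technical. Each set carries a library code of its own, so that age, duration and set cannot be told apart. The treatment text attached to the samples describes another compound, ethinyl estradiol, and the dose labels and the title, which name propranolol, were followed. The median library held 14.3 M counts (range 5.37 to 31.0 M). Of all libraries 5, each from a 5-day set, stood apart from the rest of their group.

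A larva of this age has recently hatched and still draws on its yolk, and tissues that serve the embryo alone, such as the hatching gland, are known in fish to disappear around then. Transcripts of such tissues fall while those of feeding, growing larvae take over. Propranolol blocks beta-adrenergic receptors, which raise heart rate when stimulated. The transcripts carry bare identifiers of which 0 matched the RefSeq gene table of the species, so no gene, pathway or tissue can be given for any member, and lists of hatching gland, yolk and embryonic blood genes could not be looked up. In libraries of this kind, fewer cells of a type and less RNA per cell cannot be told apart.

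Most members were modest transcripts that became scarcer, and few were lost. In the 4-day, 6 h controls, 2 members had a mean of at least 100 CPM, 16 had at least 10 CPM and 70 were below 6 CPM. Rank 1 alone made up 22.8% of the summed means of the 100 members there, and ranks 1 to 4 made up 43.6%. In the 6-day, 48 h controls the means ran from 0.142 to 1.999 CPM, and 61 members lay between 1.5 and 2 CPM, just under the limit of the rule. Only 15 were below 1 CPM and 4 below 0.5 CPM. The ratio of the 4-day, 6 h mean to the 6-day, 48 h mean had a median of 3.25 and ran from 2.06 to 293. It reached 10 in 12 members and stayed below 4 in 64.

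None of the members had vanished from every library of the oldest controls. Counts above 0 were present in each of the 8 control libraries of the 6-day, 48 h set for 93 members, 7 members were at 0 counts in at least 1 of them, and 0 members were at 0 in all. The median member had a mean of 23.9 counts per library there, against 73 counts in the 4-day, 6 h controls. At these depths the members could be followed to the end of the series, and the word lost describes only the steepest of them.

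The edges of the rule cut through a continuous range. Ranks 99 and 100 had 3.99 and 3.97 CPM in the 4-day, 6 h controls, and the transcripts in places 101 and 102, just outside, had 3.96 and 3.95 CPM. The members nearest the upper limit had 1.994 and 1.999 CPM in the 6-day, 48 h controls, against 2.005 and 2.009 CPM in the nearest transcripts outside. Another 94 transcripts at or above the early level of rank 100 had late means from 2 to 2.5 CPM, and 13 fell 10-fold or more yet stayed at or above 2 CPM. Neither group is counted among the members.

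Across the 9 control groups the members declined gradually with age plus duration, that is, the labelled age in days with the hours of exposure added. The median of the 100 control means was 4.95 CPM at 4.25 days, 4.11 CPM at 5 days and 3.98 CPM at 5.25 days. It was 3.37 CPM and 2.95 CPM in the 2 groups at 6 days (4-day, 48 h and 5-day, 24 h) and 2.92 CPM at 6.25 days. It ended with 2.32 CPM and 1.95 CPM in the 2 groups at 7 days (5-day, 48 h and 6-day, 24 h) and 1.64 CPM at 8 days. Over the same groups the median of all 34856 transcripts stayed between 4.98 and 5.37 CPM.

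The groups in which members crossed the limit of 2 CPM were spread over the series. In the same order of groups, 0, 2, 8, 16, 25, 21, 41, 55 and 100 members had a control mean below 2 CPM. The rule itself fixes the first and the last of these counts, so the step from 55 to 100 is no measurement. From the second group to the 6-day, 24 h group, 23, 21, 6, 6, 14, 1 and 0 members were above their 4-day, 6 h mean. The count thus did not fall steadily. It was 6 in both groups at 6 days and 14 in the 6-day, 6 h controls. In 68 members the 4-day, 6 h group was the highest of the 9 control groups. The rule favours this count, as it chose members for a high mean in that group. The other 32 peaked later, of which 13 peaked in the 4-day, 24 h group, 10 in the 5-day, 6 h group and 6 in the 6-day, 6 h group.

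**Figure D1:**
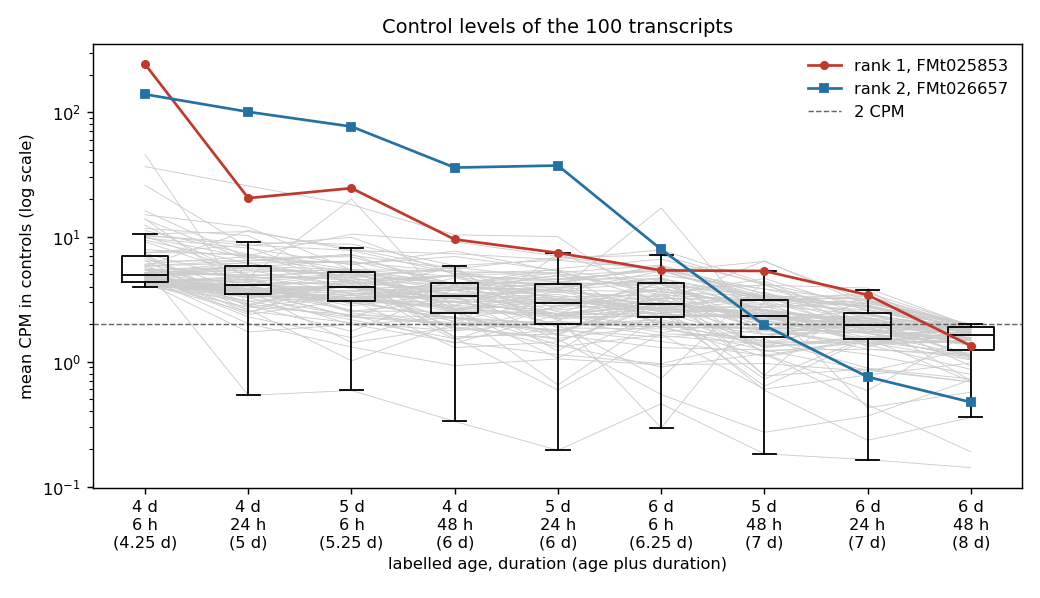
Mean CPM of each of the 100 members (grey lines) in the 9 control groups, on a log axis and ordered by age plus duration, with box plots of the 100 means (box, quartiles; whiskers, up to 1.5 times the quartile range). The median box line is at 4.95 CPM in the first group and at 1.64 CPM in the last, FMt025853 (red) has lost most of its level by the second group, and FMt026657 (blue) stays above 30 CPM until 6 days.

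The most abundant member, FMt025853 (rank 1), made most of its descent between the first group and all others. In the 4-day, 6 h controls its lowest, median and highest values were 15.7, 271 and 390 CPM. In the 4-day, 24 h controls they were 1.101, 13.8 and 58.6 CPM, and in the 4-day, 48 h controls 2.05, 8.31 and 21.3 CPM. The 6 h and 24 h libraries overlapped only through the 2 lowest of the 6 h group. Among the 5-day controls the medians were 24.4 CPM at 6 h, 1.19 CPM at 24 h and 1.37 CPM at 48 h, and among the 6-day controls 3.26, 0.783 and 0.867 CPM. Single libraries of the older groups remained high, with 47.0 CPM in one 5-day, 24 h control and 41.9 CPM in one 5-day, 48 h control. FMt025852 (rank 3) carries the next number and varied with it, with a correlation of 0.88 over the 266 libraries after the group means were removed. Its control mean was 2.79 CPM at 4 days and 24 h, against 45.7 CPM at 4 days and 6 h. Neighbouring numbers may share reads, whose assignment is not given in the sources used here, so the pair may not be 2 independent measures.

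The second most abundant member, FMt026657 (rank 2), fell more slowly at first than FMt025853. Its control mean went from 139 CPM at 6 h to 35.9 CPM at 48 h in 4-day larvae. In 5-day larvae the control mean was 37.3 CPM at 24 h and 1.96 CPM at 48 h. Its lowest, median and highest control values were 66.9, 129 and 218 CPM at 4 days and 6 h, 62.5, 83.8 and 171 CPM after 24 h and 8.31, 26.7 and 91.0 CPM after 48 h. In 5-day controls the same 3 values were 39.8, 77.5 and 118 CPM at 6 h, 12.6, 38.1 and 60.2 CPM at 24 h and 0.552, 1.097 and 9.40 CPM at 48 h. The 24 h and 48 h libraries of the 5-day controls did not overlap. In 6-day controls the median was 3.51 CPM at 6 h, 0.620 CPM at 24 h and 0.412 CPM at 48 h, with single libraries up to 28.6 CPM at 6 h. From 24 h to 48 h in the 5-day controls its log2 fold change was -4.23 ± 0.46 (SE; edgeR quasi-likelihood test, adjusted p = 5.86e-10). The same interval in the 4-day controls gave -1.47 ± 0.38 (edgeR, adjusted p = 0.00737). Rank 4, whose number differs by 2, varied with it between libraries of a group (correlation 0.86) and had log2 fold changes of -4.08 ± 0.46 and -1.28 ± 0.35 over those intervals (edgeR, adjusted p = 2.54e-09 and 0.0141).

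**Figure D2:**
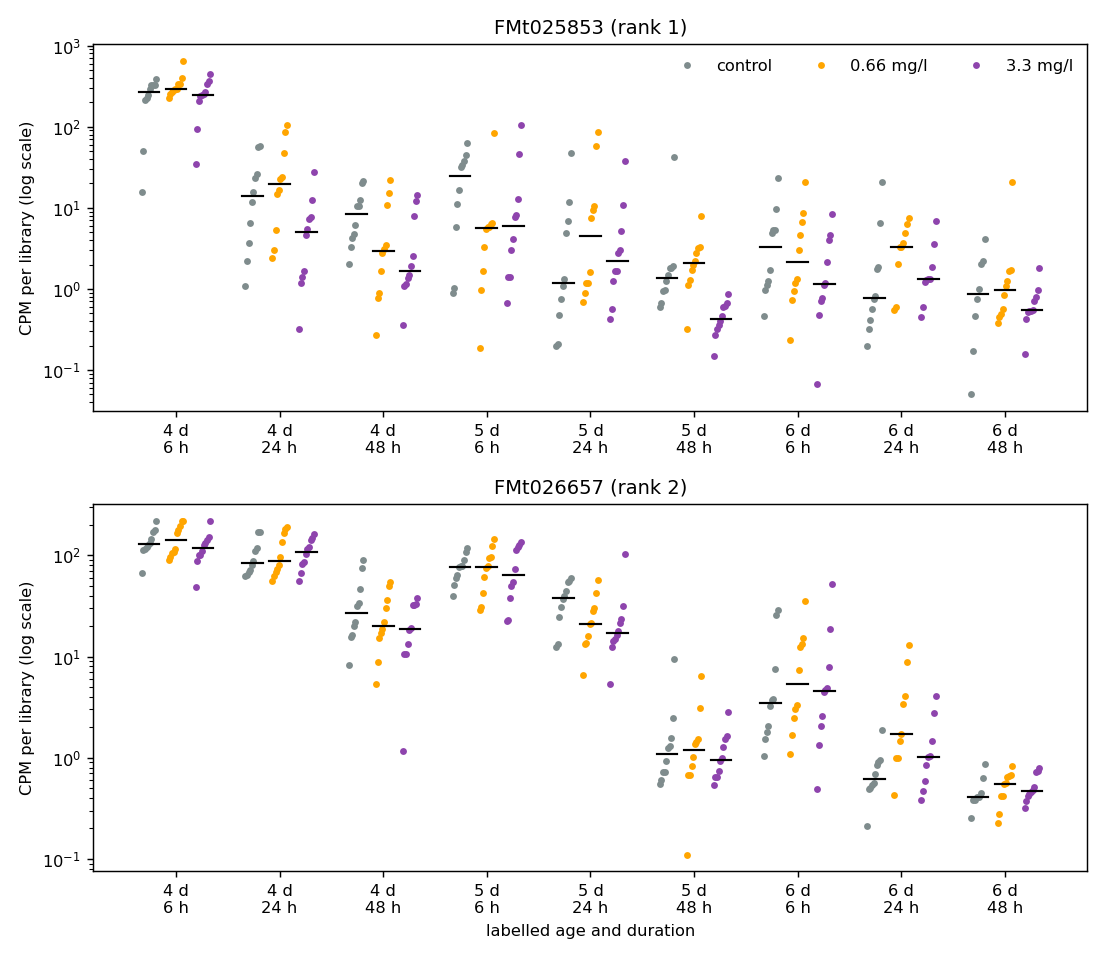
CPM of FMt025853 (top) and FMt026657 (bottom) in each library (points) of the 9 sets, on log axes, with controls, 0.66 mg/l and 3.3 mg/l side by side and black bars for medians; values at 0 are drawn at 0.05 CPM. The median control value of FMt025853 is 13.8 CPM at 4 days and 24 h, against 271 CPM at 6 h, whereas FMt026657 falls to a median of 1.097 CPM in 5-day controls at 48 h.

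The 7 control groups that did not choose the members allow tests of the decline, in a fit of all 9 control groups over 32555 transcripts that passed a filter on low counts. All 100 members passed. Each comparison sets a later group against an earlier one, and a transcript was called at a false discovery rate below 0.05. From 24 h to 48 h in the 4-day controls 20 members fell and 0 rose, where 1.14% of all transcripts fell and 3.59% rose. From 6 h to 24 h in the 5-day controls 24 members fell and 0 rose, against 7.04% and 6.66% of all transcripts. From 24 h to 48 h in the 5-day controls 18 fell and 0 rose, against 1.80% and 2.95%. From 6 h to 24 h in the 6-day controls 44 fell and 0 rose, against 9.83% and 9.52%. The median log2 fold changes of the members over these 4 steps were -0.42, -0.37, -0.35 and -0.59, and those of all transcripts lay between -0.01 and 0.00.

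Over the whole span from 6 h to 48 h in the 5-day controls, 52 members fell and 1 rose, against 6.49% and 8.06% of all transcripts (edgeR, false discovery rate 0.05), with a median log2 fold change of -0.66. FMt025853 fell over this span by 2.09 ± 0.75 on the log2 scale (SE; edgeR, adjusted p = 0.0489), and FMt026657 by 5.25 ± 0.47 (edgeR, adjusted p = 2.41e-15). FMt025030 (rank 14) had a log2 fold change of -1.48 ± 0.35 (edgeR, adjusted p = 0.00107). The riser was FMt029892 (rank 62), at 2.16 ± 0.55 (edgeR, adjusted p = 0.00255). Its lowest, median and highest values were 0.782, 1.94 and 17.2 CPM in the 48 h controls, against 0.0876, 0.734 and 3.93 CPM in the 6 h controls, and the groups overlapped.

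At an equal duration, older controls also held less of the members. At 6 h, 24 members fell and 0 rose in 6-day against 5-day controls, where 5.01% of all transcripts fell and 6.29% rose. At 24 h, 41 fell and 0 rose in 5-day against 4-day controls (14.5% and 16.5% of all transcripts). Between 6-day and 5-day controls at 24 h, 43 fell and 1 rose (10.8% and 10.5%). At 48 h, 35 fell and 1 rose in 5-day against 4-day controls (9.44% and 9.82%). The median log2 fold changes of the members were -0.34, -0.57, -0.49 and -0.42. FMt026657 was among those that fell in each of these 4 comparisons, with log2 fold changes of -3.21 ± 0.41, -1.38 ± 0.37, -5.63 ± 0.54 and -4.14 ± 0.46 (SE; edgeR, adjusted p = 5.13e-09, 0.00297, 7.14e-14 and 1.44e-10).

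Where age plus duration was equal, the members' medians moved less. In the 5-day, 24 h controls against the 4-day, 48 h controls, both at 6 days, 10 members fell and 4 rose, with 13.7% of all transcripts falling and 14.4% rising, and the median was -0.06. FMt026657 stood at a log2 fold change of 0.09 ± 0.37 there (edgeR, adjusted p = 0.887). In the 6-day, 24 h controls against the 5-day, 48 h controls, both at 7 days, 15 members fell and 2 rose, with 8.24% and 7.21% of all transcripts, and the median was -0.19. FMt026657 had -1.40 ± 0.62 (edgeR, adjusted p = 0.113). The 2 median differences were not tested against those of the other comparisons.

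Counted over the 11 control comparisons, 86 members fell in at least 1 and 14 in none, where 37.1% of all 32555 transcripts fell in at least 1. In at least 1 of the 4 steps within an age 63 members fell, against 15.8% of all transcripts, and 1 member fell in all 4, against 0.0614%. Between some control groups the labelled age and age plus duration give opposite orders. There, 73 members had a higher mean in the 5-day, 6 h controls than in the 4-day, 48 h controls. In the 6-day, 6 h controls 78 had a higher mean than in the 5-day, 48 h controls. Both comparisons also set 6 h against 48 h, so age plus duration cannot be told apart from duration alone. The share of all transcripts was not computed for them. Rank 10, chosen after its values were seen, fell with duration at each age. Its mean in controls was 12.4, 4.75 and 2.61 CPM at 6, 24 and 48 h in 4-day larvae, 20.1, 3.65 and 1.76 CPM in 5-day larvae and 17.1, 3.06 and 1.75 CPM in 6-day larvae. It was thus high at 6 h at every age. Rank 38 also fell with duration at each age. Its control means at 6, 24 and 48 h were 5.54, 2.46 and 1.58 CPM in 4-day larvae. They were 4.82, 1.67 and 1.30 CPM in 5-day larvae and 3.56, 1.61 and 1.05 CPM in 6-day larvae. How many other members did so was not counted. For rank 10 the log2 fold change in 6-day against 5-day controls at 6 h was -0.23 ± 0.25 (SE; edgeR, adjusted p = 0.633). From 6 h to 24 h it fell by 2.44 ± 0.27 in 5-day and by 2.37 ± 0.28 in 6-day controls (edgeR, adjusted p = 5.30e-11 and 2.07e-10).

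The propranolol libraries, which had no part in choosing the members, also held less of most members in the last set than in the first. They belong to the same 2 sets as the controls that chose the members. Age, duration and set cannot be told apart there either. In the high dose, 88 of 100 members fell and 0 rose from 4 days and 6 h to 6 days and 48 h, where 25.3% of 34000 transcripts fell and 26.8% rose (edgeR, 27 groups in one fit). In the low dose, 92 fell and 0 rose, against 23.6% and 24.6%. The median log2 fold change was -1.45 in the high dose and -1.39 in the low dose, beside -1.63 in the controls, which chose the members and give no test. Whether the decline differs between exposed larvae and controls was not tested. FMt025853 had -8.34 ± 0.97 in the high dose and -6.64 ± 0.84 in the low dose (SE; edgeR, adjusted p = 1.40e-14 and 1.06e-12). FMt026657 had -7.72 ± 0.60 and -8.07 ± 0.59 (edgeR, adjusted p = 2.03e-27 and 8.09e-30).

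The members that did not pass in these libraries were few. 87 members fell in both doses, 1 (rank 28) in the high dose only, 5 (ranks 10, 32, 53, 55 and 82) in the low dose only, and 7 (ranks 6, 16, 31, 62, 75, 86 and 95) in neither. Of all 34000 transcripts, 18.6% fell in both doses, 6.7% in the high dose only, 4.97% in the low dose only and 69.7% in neither. Whether the doses differ in this decline was not tested. Rank 86 stood at 0.01 ± 0.40 in the high dose and 0.03 ± 0.38 in the low dose (SE; edgeR, adjusted p = 0.993 and 0.957). FMt029892 (rank 62) stood at 0.50 ± 0.42 and -0.78 ± 0.46 (edgeR, adjusted p = 0.329 and 0.152). Ranks 32 and 55 had -0.38 ± 0.54 and -0.62 ± 0.55 in the high dose (edgeR, adjusted p = 0.585 and 0.349), against -2.04 ± 0.57 and -2.09 ± 0.58 in the low dose (edgeR, adjusted p = 0.00137 and 0.00119).

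The members varied more between libraries of a group than transcripts did in general. The coefficient of variation of CPM (CV, the SD as a percentage of the mean) had a median over members of 28.3% to 46.9% in the 27 groups. Over all transcripts its median was 20.1% to 26.4%. Both medians took only transcripts with a group mean of at least 0.5 CPM, which kept 95 to 100 members per group. With the variance expected from counting alone subtracted, the ranges were 24.0% to 40.8% and 15.9% to 22.4%. The median of the members was the higher one in each of the 27 groups on both measures. The 2 control groups that chose the members are among the 27 and add no support, as the rule acted on the members' level there. The comparison was not matched for level. The median control mean of the members went from 4.95 to 1.64 CPM, while that of all transcripts stayed between 4.98 and 5.37 CPM. Taking each member's median CV over the 9 control groups, the values ran from 18.3% to 180% with a median of 34.8%. It was above 100% in 4 members, above 50% in 22 and below 30% in 34. FMt025853 had 103% and FMt026657 45.6%.

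The widest spread belonged to a pair that was high in some libraries and low in the others, with a gap that was narrow in some groups. Ranks 6 and 16, chosen after their values were seen, carry numbers 3 apart, may share reads, and had a correlation of 0.92 between libraries of a group. Rank 6 exceeded 3 CPM in 51 of 266 libraries and rank 16 in 50, and in each of those 50 both did. The limit of 3 CPM was also set after the values were seen. At the high dose in 6-day larvae after 48 h, rank 16 reached 2.77 CPM below the limit and started at 3.31 CPM above it. Among controls of the 4-day, 6 h set, 4 of 10 libraries held rank 6 at 36.2 to 41.4 CPM and the other 6 at 1.49 CPM or less. With such a gap the mean of 16.2 CPM that placed it among the members describes none of the libraries.

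The high state appeared at each dose and age. Rank 6 was above 3 CPM in 17 of 88 control libraries, 17 of 89 at the low dose and 17 of 89 at the high dose, and in 20 of 90 libraries of the 4-day sets, 10 of 90 of the 5-day sets and 21 of 86 of the 6-day sets. In 4-day controls the medians of the libraries above 3 CPM were 39.01, 31.0 and 18.5 CPM at 6, 24 and 48 h, from 4, 2 and 1 libraries. In 5-day controls they were 12.4 CPM at 6 h and 8.02 CPM at 48 h, from 3 and 1 libraries, with 0 libraries above 3 CPM at 24 h. In 6-day controls they were 15.01, 4.97 and 7.95 CPM at 6, 24 and 48 h, from 1, 4 and 1 libraries. The 4-day medians were thus above those of the 5-day and 6-day controls, all from 1 to 4 libraries. The medians of the low libraries ran from 0.333 to 1.03 CPM over the 27 groups. In the 4-day, 6 h set only 1 of 10 high-dose and 1 of 10 low-dose libraries were in the high state, and ranks 6 and 16 were among the 7 members with no called decline in the propranolol libraries. These states come from the values and were compared with no test.

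**Figure D3:**
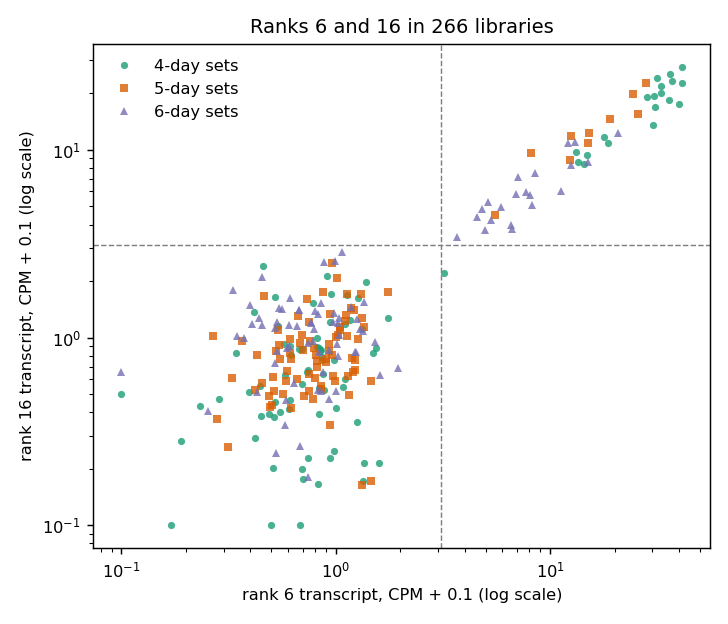
CPM of the rank 6 and rank 16 transcripts in each of the 266 libraries, with 0.1 CPM added, on log axes, by age of the set; the dashed lines mark 3 CPM. The 50 libraries at the upper right hold both transcripts above 3 CPM, and 1 library holds rank 6 alone above it.

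Ranks 32 and 55, also chosen after their values were seen, varied together in a graded way, with a correlation of 0.90 within groups, although their numbers are far apart. In 6-day, 48 h controls rank 32 had 0.171, 1.20 and 6.78 CPM as its lowest, median and highest value, and rank 55 had 0, 0.923 and 5.36 CPM. Of the 4950 pairs of members, 7 reached a correlation of 0.5 within groups, 5 of them pairs with numbers at most 3 apart. The mean over all pairs was 0.06, beside 0.02 over pairs of the 27102 transcripts with a mean of at least 1 CPM. The points are the 266 libraries, which share depth and scaling between the transcripts of a pair.

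Against controls, propranolol moved few members, and in both directions. Over the 7 sets whose controls did not choose the members, the high dose raised 3 members and lowered 3, where 3.28% of 34000 transcripts rose and 1.53% fell (edgeR, false discovery rate 0.05). The shares of members are close to those of all transcripts. The median log2 fold change was -0.03 over the members, of which 42 were above 0, and -0.01 over all transcripts, of which 47.1% were. The members that passed were FMt029892 (rank 62), FMt025030 (rank 14) and rank 72, which rose, and FMt025853 (rank 1), FMt025852 (rank 3) and rank 56, which fell. Ranks 56 and 72 moved little, by -0.26 ± 0.08 and 0.21 ± 0.06 on the log2 scale (edgeR, adjusted p = 0.0241 and 0.0332). FMt026657 stood at -0.08 (edgeR, adjusted p = 0.882).

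FMt029892 was the member that rose most at the high dose, and it did so at 24 and 48 h. After 48 h in 4-day larvae its lowest, median and highest values were 1.32, 14.4 and 28.8 CPM at the high dose, against 0.662, 1.65 and 4.96 CPM in controls. Of the high-dose libraries only the lowest lay within the control range. The log2 fold change was 2.81 ± 0.44, a 7.02-fold difference (edgeR within the set, adjusted p = 4.88e-04). After 48 h in 5-day larvae it had 2.17, 7.61 and 19.4 CPM at the high dose and 0.782, 1.94 and 17.2 CPM in controls, and these groups overlapped. The mean of both sets was 1.89 ± 0.32 (edgeR, adjusted p = 2.48e-06), and the mean of the 3 sets at 24 h was 1.02 ± 0.27 (edgeR, adjusted p = 0.0216). At 6 h it stood at -0.12 ± 0.41 in the mean of the 5-day and 6-day sets. The mean of 7 sets was 0.94 ± 0.19 (edgeR, adjusted p = 1.19e-04). It was 0.63, with an adjusted p of 0.0576, when the 4-day, 48 h set was left out.

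The low dose did not share this rise. Against the low dose, the high dose raised FMt029892 by 1.19 ± 0.16 over 9 sets (SE, log2; edgeR, adjusted p = 1.68e-09) and by 2.27 ± 0.26 at 48 h (edgeR, adjusted p = 4.08e-13), a 4.83-fold difference. In 6-day larvae after 48 h it had 4.12, 7.17 and 23.5 CPM at the high dose, against 0.677, 1.49 and 5.54 CPM at the low dose. The 8 controls of that set ran from 0.411 to 7.84 CPM. The high-dose median in the last set was above the 3.55 CPM of the first controls, which chose the members. Within the high dose, the log2 fold change from the first to the last set was 0.50 ± 0.42 (edgeR, adjusted p = 0.329) and was not called.

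**Figure D4:**
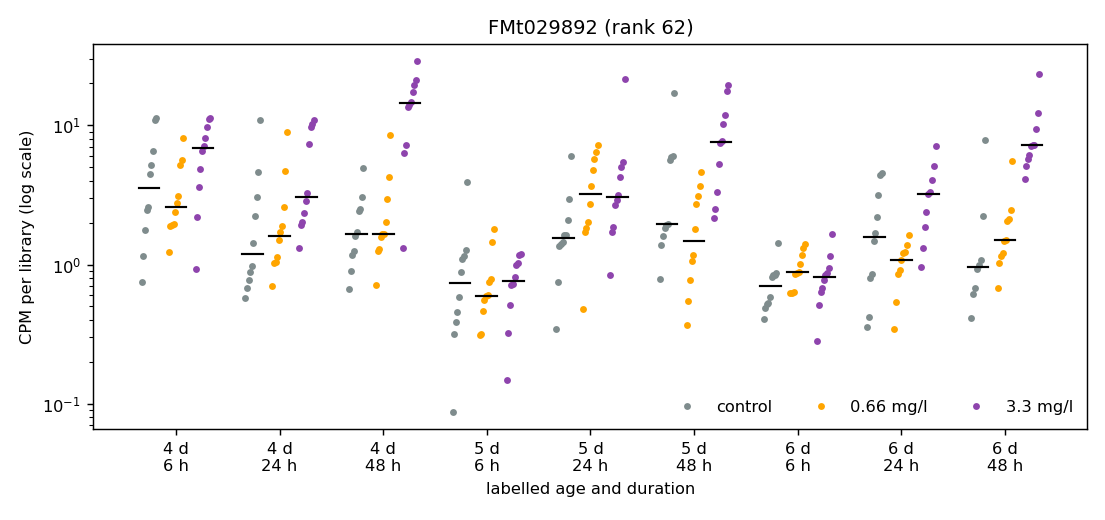
CPM of FMt029892 in each library (points) of the 9 sets on a log axis, with controls, 0.66 mg/l and 3.3 mg/l side by side and black bars for medians. The high-dose medians at 48 h are 14.4, 7.61 and 7.17 CPM in 4-, 5- and 6-day larvae, and at 6 h in 5- and 6-day larvae the 3 dose groups lie together.

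FMt025030, which had a control median of 1.06 CPM at 6 days and 48 h, against 10.2 CPM at 4 days and 6 h, was also higher at the high dose. After 48 h in 5-day larvae it had 2.71, 6.93 and 10.6 CPM at the high dose and 1.47, 2.75 and 6.89 CPM in controls. After 6 h in 6-day larvae it had 0.842, 7.08 and 15.7 CPM at the high dose and 1.34, 3.13 and 6.46 CPM in controls. The groups overlapped in both sets. The mean over 7 sets was 0.49 ± 0.13 (SE, log2; edgeR, adjusted p = 0.0130), and at 48 h it was 0.85 ± 0.24 (edgeR, adjusted p = 0.0273). Leaving out the 4-day, 48 h, the 5-day, 48 h or the 6-day, 6 h set gave 0.45, 0.40 and 0.40, with adjusted p-values of 0.0534, 0.133 and 0.0872. The low dose against controls gave 0.36 ± 0.13 over the 7 sets (edgeR, adjusted p = 0.28). High against low dose gave 0.14 ± 0.12 over 9 sets (edgeR, adjusted p = 0.50), so a difference between the doses was not called. In the first set, which gives no test, the medians were 10.2 CPM in controls, 15.8 CPM at the low dose and 17.4 CPM at the high dose.

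FMt025853 fell at the high dose by 1.27 ± 0.30 on the log2 scale over 7 sets (SE; edgeR, adjusted p = 0.00291), and FMt025852 by 1.19 ± 0.33 (edgeR, adjusted p = 0.0150). By limma-voom neither passed, at -0.98 and -1.14 (adjusted p = 0.164 and 0.158). After 48 h in 5-day larvae FMt025853 ran from 0.150 to 0.856 CPM at the high dose with a median of 0.429 CPM. The controls of that set had a median of 1.37 CPM, with 9 libraries from 0.605 to 1.90 CPM and control library 8 at 41.9 CPM. The 2 groups overlapped at their edges. The log2 fold change there was -3.44 ± 0.78 with that library (edgeR within the set, adjusted p = 0.0207) and -1.39 without it (adjusted p = 0.0813). Over 7 sets FMt025853 without that library had -0.97 (edgeR, adjusted p = 0.0409), and FMt025852 had -0.89 (adjusted p = 0.120). When the 5-day, 48 h set was left out, the values were -0.90 for FMt025853 and -0.75 for FMt025852, with adjusted p-values of 0.112 and 0.273.

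The fitted log2 fold change of FMt025853 was below 0 in each of the 7 sets, and the 5-day, 48 h set alone passed. In the other 6 it ran from -1.60 to -0.17, and the groups overlapped in those described here. After 24 h in 4-day larvae its lowest, median and highest values were 0.319, 5.01 and 27.9 CPM at the high dose, against 1.101, 13.8 and 58.6 CPM in controls. After 48 h in 4-day larvae they were 0.361, 1.68 and 14.4 CPM at the high dose, against 2.05, 8.31 and 21.3 CPM in controls. The high-dose medians were lower in both. After 24 h in 5-day larvae the median was 2.23 CPM at the high dose and 1.19 CPM in controls, and after 24 h in 6-day larvae 1.32 CPM and 0.783 CPM, so the medians there were higher at the high dose, while the fitted log2 fold changes were -0.17 ± 1.00 and -0.93 ± 0.75 (SE; edgeR, adjusted p = 0.987 and 0.745).

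At 48 h, as the mean of the 4-day and 5-day sets, the high dose lowered 7 members and raised 2, where 0.829% of all transcripts fell and 2.34% rose (edgeR, false discovery rate 0.05). The median of the members was -0.11. Those that fell were ranks 1, 3, 8, 21, 23, 35 and 42, with log2 fold changes from -2.33 to -0.46, and those that rose were ranks 14 and 62. Without control library 8 of the 5-day, 48 h set, 4 fell and 2 rose, and FMt025853 stood at -1.23 with an adjusted p of 0.388. By limma-voom 4 fell and 2 rose at 48 h, and FMt025853 and FMt025852 did not pass (adjusted p = 0.316 and 0.385). At 24 h only FMt029892 passed, as a rise, with 1.03% of all transcripts rising and 0.0971% falling. The interaction of the high-dose effect with duration, 48 h minus 24 h, passed for 0 members (edgeR; 7 members had an unadjusted p under 0.05, and limma-voom called 0), with 0.05% of all transcripts higher and 0.0176% lower.

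At 6 h, 1 member rose at the high dose, with 0.0118% of all transcripts rising and 0.0% falling. This was rank 8, at 2.48 ± 0.53 (SE, log2; edgeR, adjusted p = 0.0408), and the call came from 1 library. In the 6-day, 6 h set, high-dose library 37 held rank 8 at 49.5 CPM, the median of the high dose was 0.325 CPM, and the controls ran from 0 to 0.755 CPM. Without that library 0 members passed at 6 h.

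Within single sets, the high dose changed few members. In 4-day larvae after 48 h, 1 of the 99 members tested rose (FMt029892) and 1 fell (rank 23, by 0.83 ± 0.20 on the log2 scale, adjusted p = 0.0246), where 0.854% of 29508 transcripts rose and 0.136% fell. Rank 23 lost its call in 4 of the 20 fits that left out 1 library each, those without control library 4, 11 or 14 or high-dose library 32. In 5-day larvae after 48 h, 0 of 96 rose and 1 fell (FMt025853), with 0.947% of 29886 transcripts rising and 0.274% falling. In the 5 other sets compared with controls, edgeR and DESeq2 called 0 members, 3 to 7 members per set had an unadjusted p under 0.05, and 0.0% to 0.586% of all transcripts rose and 0.0% to 0.104% fell.

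**Figure D5:**
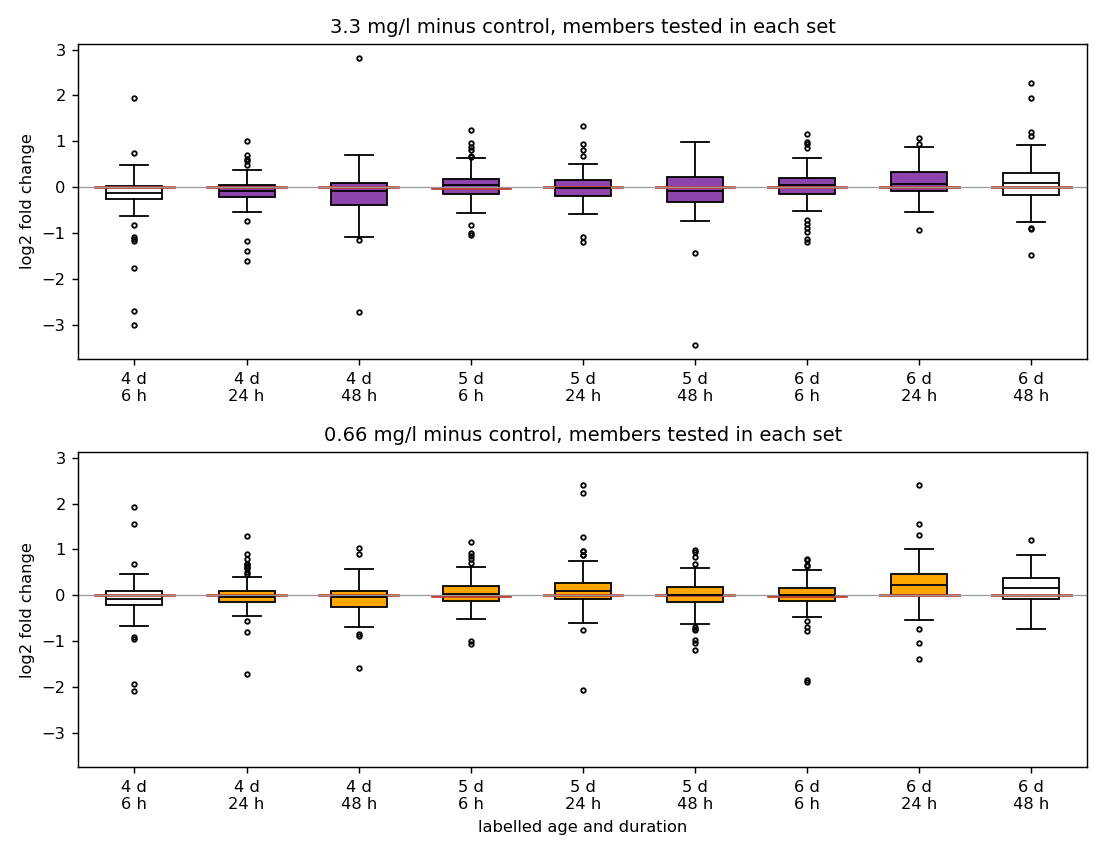
Log2 fold changes of the members tested in each set, high dose minus control (top) and low dose minus control (bottom); box, quartiles with the median; whiskers, up to 1.5 times the quartile range; circles, members beyond; red lines, the median of all transcripts. White boxes mark the first and last set, whose controls chose the members. The median lies at 0.22 for the low dose in 6-day larvae after 24 h and between -0.09 and 0.10 in the other coloured boxes.

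The low dose called 0 members over the 7 sets, with 0.0735% of 34000 transcripts rising and 0.0176% falling. There 10 members had an unadjusted p under 0.05 in edgeR, and limma-voom called 0. The median log2 fold change was 0.06, with 71 of 100 members above 0, and the values ran from -0.32 to 0.36. Over all transcripts the median was 0.00, with 49.4% above 0. As means by duration the low dose called 0 members at 6, 24 and 48 h by edgeR and by limma-voom, with 4, 13 and 7 members at an unadjusted p under 0.05. The shares of all transcripts that rose were 0.0%, 0.262% and 0.0%, and those that fell 0.0%, 0.0353% and 0.0%. The medians of the members were 0.02, 0.12 and 0.00.

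One set stood out at the low dose. In 6-day larvae after 24 h, 5 of the 95 members tested rose and 0 fell, where 2.76% of 29703 transcripts rose and 3.17% fell (edgeR within the set). The median of the 95 was 0.22, and 70 were above 0, against 51.9% of all transcripts. The risers were FMt026657 and ranks 15, 35, 79 and 97. FMt026657 had 0.432, 1.71 and 12.96 CPM at the low dose, against 0.210, 0.620 and 1.86 CPM in controls. The groups overlapped, and 4 of the 9 low-dose libraries exceeded every control. The log2 fold change was 2.41 ± 0.56, a 5.33-fold difference (edgeR, adjusted p = 0.0117), and it ran from 1.90 to 2.57 when single libraries were left out. The other 4 rose by 0.83 to 1.00 on the log2 scale. The summed CPM of the 100 members had lowest, median and highest values of 193, 260 and 298 CPM at the low dose and 176, 183 and 245 CPM in controls.

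The count of risers in that set changed with single libraries. It was 3 without control library 4 or without low-dose library 17, 19, 22 or 29, 8 without low-dose library 26 or 28, and 9 without control library 5. The direction was upward for each member called in these fits. In the same larvae the high dose called 0 of 95 members against controls, and its summed CPM had 185, 211 and 305 CPM as lowest, median and highest value. In the other 6 sets the low dose called 0 members by edgeR, with 4 to 8 per set at an unadjusted p under 0.05, and DESeq2 called 1 member, which fell, in 5-day larvae after 24 h. The shares of all transcripts called in those 6 sets were 0.0% except for 0.0663% that rose in 5-day larvae after 24 h.

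The high dose set against the low dose uses none of the libraries that chose the members, so all 9 sets enter. 9 members were lower and 2 higher at the high dose, where 3.84% of 34000 transcripts were lower and 4.95% higher (edgeR, false discovery rate 0.05). The median log2 fold change was -0.07, with 35 members above 0, against 48.7% of all transcripts. FMt029892 and rank 45 were higher. Lower were FMt025853 at -1.15 ± 0.28 and FMt025852 at -1.17 ± 0.29 (SE; edgeR, adjusted p = 0.00177 and 0.00291; by limma-voom 0.115 and 0.136), rank 66 at -0.68 ± 0.18 (adjusted p = 0.00517), and ranks 35, 44, 56, 58, 70 and 79 by less, from -0.33 to -0.19. Single low-dose libraries held FMt025853 at 652.0 CPM (4-day, 6 h), 83.1 CPM (5-day, 6 h) and 21.0 CPM (6-day, 48 h). FMt025852 was high in those of the 5-day and 6-day larvae, at 12.5 and 4.56 CPM. Fits that left out only these libraries were not run.

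At 48 h, over 3 ages, 13 members were lower and 2 higher at the high dose than at the low dose, against 3.94% and 5.91% of all transcripts. At 24 h only FMt029892 passed, at 1.06 ± 0.27 (edgeR, adjusted p = 0.0272), with 0.421% of all transcripts higher and 0.335% lower. At 6 h 0 members passed by edgeR or limma-voom, 4 had an unadjusted p under 0.05, and 0.0% of all transcripts were called in either direction. By set, the counts higher and lower were 1 and 2 of 99 in 4-day larvae after 48 h (0.807% and 0.156% of all transcripts), 2 and 3 of 96 in 5-day larvae after 48 h (2.89% and 2.40%), 1 and 0 of 95 in 6-day larvae after 24 h (0.963% and 0.276%) and 2 and 0 of 96 in 6-day larvae after 48 h (2.83% and 1.19%). FMt029892 was higher in each of these 4 sets.

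In 6-day larvae after 48 h the second riser was rank 10, described above as high at 6 h at every age. It had 1.05, 5.03 and 29.9 CPM at the high dose, against 0.677, 1.74 and 2.70 CPM at the low dose. The log2 fold change was 1.98 ± 0.47 (edgeR, adjusted p = 0.0128). The 8 controls, which chose the members, ran from 0.616 to 3.15 CPM. At the high dose the median of rank 10 thus lay above 2 CPM, a limit that the rule set on the controls alone. In those controls 61 members had means from 1.5 to 2 CPM. How many members had a high-dose median above 2 CPM in this set was not counted.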

How the data were processed

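The authors deposited raw counts, 1 whole number per transcript and library. The SENSE mRNA-Seq kit V2 was used for the libraries, per the labels' protocols. The submitters' processing notes name edgeR 3.26.8, limma 3.40.6 and bcl2fastq 2.19.1. Which aligner, genome build and counting rule were used is not given in the sources used here. Of 270 labelled samples, 4 are not analysed here (1 low-dose and 1 high-dose library of the 6-day, 24 h set and 2 controls of the 6-day, 48 h set).

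CPM is a count divided by its library's total, scaled to 1000000. The members and lists were chosen with earlier results of these data known. Tests used edgeR 4.0.16 in R 4.3.3 on the deposited counts, with TMM scaling, filterByExpr, robust quasi-likelihood F-tests and Benjamini-Hochberg adjustment over all transcripts tested, at a false discovery rate of 0.05. The 27 groups, the 9 control groups and the 3 doses of each set were fitted separately. The SE is the log2 fold change divided by the square root of F. Alternatives used limma-voom (limma 3.58.1), DESeq2 1.42.0, RLE size factors, no filter, and left-out sets or libraries. A library stood apart where 1 minus its correlation with the mean of its group's others exceeded 3 times the group's median. The procedure was tested on simulated data. Plots and tables used Python 3.11.15, pandas 2.3.3 and matplotlib 3.10.9.

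Identifiers are printed for ranks 1 and 2 and for the 2 members with the largest called rise and the 2 with the largest called fall at the high dose over 7 sets. Other members are given by rank.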

Additional observations from a re-analysis of the deposited data

Results flagged for a closer look

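The summed CPM of the 100 members and the CPM of the 5 named transcripts were searched for a library that lay far from the rest of its group, by Dixon's ratio on log2(CPM + 0.5). In 162 tests, 1 for each of these quantities in each of the 27 groups, 21 found one. Chance gives about 1 in 20 for independent tests of normally distributed log values. These tests were not independent, as the sum includes the named transcripts, and FMt025853 and FMt025852 varied together. For the summed CPM, the lowest library had 410.0 CPM at the high dose in 4-day larvae after 24 h (library 34) and 654.1 CPM in the 4-day, 6 h controls (library 11). The highest had 1940.7 CPM at the low dose in 4-day larvae after 6 h (library 26), 305.1 CPM at the high dose in 6-day larvae after 24 h (41), 261.1 CPM at the high dose in 6-day larvae after 48 h (37) and 510.1 CPM at the high dose in 6-day larvae after 6 h (37).

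FMt025853 had a single high library in 4 groups, with 652.0 CPM at the low dose in 4-day larvae after 6 h (26), 41.9 CPM in the 5-day, 48 h controls (8), 83.1 CPM at the low dose in 5-day larvae after 6 h (29) and 21.0 CPM at the low dose in 6-day larvae after 48 h (19). FMt025852, its neighbour in number, was high in the last 3 of these libraries, with 9.07, 12.5 and 4.56 CPM. It also had 8.95 CPM in control library 8 of the 5-day, 24 h set and a low value of 10.5 CPM in high-dose library 35 of the 4-day, 6 h set.

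FMt026657 had a low value of 1.16 CPM at the high dose in 4-day larvae after 48 h (34) and a high one of 9.4 CPM in the 5-day, 48 h controls (11). FMt029892 had a low value of 1.32 CPM at the high dose in 4-day larvae after 48 h (31) and a high one of 21.5 CPM at the high dose in 5-day larvae after 24 h (34). FMt025030 had a low value of 0.51 CPM at the high dose in 5-day larvae after 24 h (43) and a high one of 5.78 CPM at the low dose in 6-day larvae after 48 h (29). The part of these libraries in the results was not tested beyond the fits that left out a library.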

How the results depend on the processing

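Of the counts of members called and of members shared with another form of the rule, 284 values under an alternative stayed within 1.5 times the value reported and 38 did not. The 284 include counts of 0 that stayed at 0, and how many these were is not given. Each count of calls sums rises and falls and does not track which members were called. For the named transcripts, 198 log2 fold changes kept their direction and their side of the threshold, 18 lost the call and 2 turned round. Over 7 sets, the high dose called 3 members when the 4-day, 48 h set was left out and 1 when the 5-day, 48 h set was, and the low dose called 1 when the 4-day, 24 h or the 5-day, 6 h set was left out. High against low dose over 9 sets called 7 without the 5-day, 48 h set and 7 by limma-voom, and at 24 h 2 without the libraries that stood apart and 0 by limma-voom. At 6 h the high dose called 0 with no filter, without the libraries that stood apart or by limma-voom. With transcripts of adjacent numbers summed, the unit was not the member but the 94 sums that held a member. Such a sum can also hold transcripts that are not members. Of these sums, 11 changed from 24 to 48 h in 4-day controls and 27 between the control groups at 6 days. Between the groups at 7 days limma-voom called 11. DESeq2 called 5 members for the high dose in 4-day and 5 in 5-day larvae after 48 h, 8 for the low dose in 6-day and 1 in 5-day larvae after 24 h, and 9 for high against low dose in 5-day larvae after 48 h, where the fit without the libraries that stood apart called 3. The cause was not tested. The shares of all transcripts called under the alternatives are not given, in this section or above. The counts of members under an alternative therefore cannot be set against such a share.

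With 1 library left out in turn, the calls within sets ran from 1 to 3 (high dose, 4-day, 48 h), 0 to 2 (high dose, 5-day, 48 h) and 3 to 9 (low dose, 6-day, 24 h). In the fits without control library 8 of the 5-day, 48 h set or high-dose library 37 of the 6-day, 6 h set, the high dose called 5 to 6 over 7 sets, 6 to 9 at 48 h and 0 to 1 at 6 h, and high against low dose 11 to 13 over 9 sets and 1 to 2 at 24 h. FMt026657 at the high dose, not called, turned to 0.043 when the 4-day, 48 h set was left out and to 0.030 when the 5-day, 48 h set was. By limma-voom FMt025853 and FMt025852 lost their calls over 7 sets (-0.98 and -1.14, adjusted p = 0.164 and 0.158).

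The rule with a limit of 1 or 5 CPM shared 15 and 18 of its 100 transcripts with the members, with TMM-scaled CPM 90 and with medians 73. It shared 87 to 97 when 1 control library was left out.

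Libraries with the same number did not deviate together (mean correlation 0.0041 over 344 pairs, 54 above 0.1, against 0.0014 over 3096 other pairs). With the replicate block, the 11 control comparisons, in the order reported, called 21, 22, 18, 42, 54, 22, 42, 46, 35, 15 and 16 members.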
